A study of Mus musculus with 12 samples.

Results

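The proliferative hub is the ring of dividing basal epidermal cells that lies outside the migrating leading edge (LE) of a skin wound, and its transcriptome 4 days after wounding was compared with that of basal cells from skin far from the wound. All arrays carrying those labels were taken, 2 of proliferative hub D4 and 2 of control D4, which makes 4 of the 12 arrays in the study, and the comparison was described over the 17097 genes that had a probe set annotated to 1 gene only. Where a gene had several such probe sets, the one with the highest mean over the 12 arrays stood for it. The mice were of the CD1 strain and carried no transgene that the labels name. Every mouse received a full wound of 3 mm in the tail skin, so the control cells also came from wounded animals, at a distance from the wound. A punch of 4 mm around the wound removed the LE and a following punch of 6 mm removed the hub. Each array held RNA from 300 sorted basal cells of the interfollicular epidermis (IFE) and infundibulum, from a pool of 5 mice, and the RNA was amplified as whole transcriptome cDNA before hybridization. The cells were sorted as α6-integrin positive and CD34 negative, a gate that leaves out the hair follicle bulge.

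When the skin is wounded, basal keratinocytes near the gap leave their slow turnover. Cells at the edge flatten and crawl over the provisional matrix, while cells further back re-enter the cell cycle and supply the epithelium that closes the wound. Keratinocytes in wounds also switch on small proline-rich proteins, stress keratins and connexin 26, a set of genes long used as signs of an activated epidermis.

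The sorted populations had the genes of basal keratinocytes. Keratin 5 (Krt5) lay at 12.61 and 12.63 on the hub arrays and at 12.66 and 12.72 on the control arrays, on the log2 scale of the robust multi-array average (RMA) in which all values are given. The sorted antigen Itga6 was at 11.39 and 11.27 in the hub and at 11.29 and 11.24 in the control, and the excluded antigen Cd34 was at 4.28 and 4.47 in the hub and at 4.24 and 3.91 in the control, below the array medians of 5.401 to 5.469. Over 18 lists of markers for epidermal compartments and other skin cells, none of the 145 measured markers passed the test described next. At an unadjusted p under 0.05 in limma 2 were higher and 4 were lower, against 6.9% and 4.07% of all genes. Of all genes only 0.222% were called higher and 0.105% lower, so a lack of calls among 145 markers is near that share. Melanocyte RNA was uneven between arrays of the same group. The pigment enzyme gene Tyrp1 was at 9.63 on the hub array of replicate 2 and at 8.48 on the control array of replicate 1, against 4.83 and 4.51 on their partners, and the mean over the 10 melanocyte markers was 6.85 and 6.32 on the first pair and 5.18 and 5.19 on the second. Since each group held 1 array of each kind, it did not follow hub against control. As in any bulk sample, fewer cells of a type and less RNA per cell cannot be told apart in the values that follow.

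Each gene was tested with limma on all 12 arrays, with 1 mean for each of the 6 groups, and a gene was called when its p adjusted by Benjamini-Hochberg over the 17097 genes was under 0.05. In the hub at D4, 38 genes rose (0.222% of those tested) and 18 fell (0.105%) against the control. At an unadjusted p under 0.05 the counts were 1180 higher (6.9%) and 696 lower (4.07%). Both hub arrays lay above both control arrays in 21.2% of genes and below them in 18.0%. The median of all differences was 0.01, and the median size of a difference, 0.11, was below the median standard error (SE) of 0.14. The plot of all genes shows most of them in a narrow band around 0, and the called genes outside it over a wide range of levels.

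**Figure D1:**
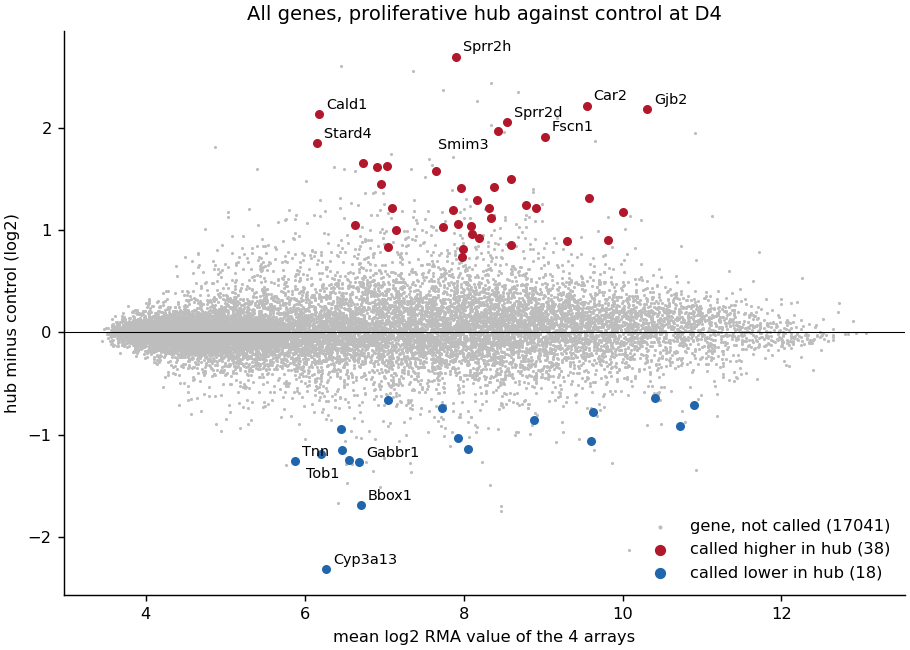
Hub minus control at D4 on the log2 scale (vertical axis) against the mean log2 RMA value of the 4 hub and control arrays (horizontal axis), 1 point per gene. The 38 genes called higher (red) and 18 called lower (blue) lie between log2 differences of -2.31 and 2.69, and grey points as far from 0 are genes that did not pass the test.

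The number of calls varied with the arrays in the fit. In the 6 arrays of D4 alone 1 gene was called, Cald1, and in the 4 hub and control arrays alone none was (limma, lowest adjusted p = 0.167, 1641 genes at an unadjusted p under 0.05). Without the hub array of replicate 1 the count dropped from 56 to 6, of which 3 were among the 56 genes. Without 1 of the D7 arrays it was 29 to 36, and without 1 of the other D4 arrays 38 to 49. Each of these fits has 1 array fewer for the shared spread, and the cause of the different counts was not tested. Of the 56 genes, 2 (Cald1 and Sprr2d) were called in every one of the 12 fits that left out 1 array. The labels call the 2 samples of a group biological replicates, each a pool, and do not say whether the pools of the 3 regions with the same number came from the same mice.

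Some genes of the activated keratinocyte and of the cornified envelope were among the largest rises. A wider list of suprabasal differentiation and barrier genes did not share the rise, with 17 of 44 higher in the hub in mean and a median of -0.07. Sprr2h, a small proline-rich protein that is cross-linked into the cornified envelope, was at 9.64 and 8.87 on the hub arrays and at 7.06 and 6.06 on the control arrays. Its difference of 2.69 ± 0.32 (SE, n = 2 arrays per group) is a 6.46-fold rise (adjusted p = 0.0158). Its relative Sprr2d was at 9.57 on both hub arrays and at 7.39 and 7.64 in the control, and rose by 2.06 ± 0.16, or 4.16-fold (adjusted p = 0.00344), the smallest p in the comparison. Members of the Sprr2 family are close in sequence, so probe sets of one member may also read another. Gjb2, which encodes the gap junction protein connexin 26, was at 11.39 and 11.41 in the hub and at 9.54 and 8.91 in the control, a 4.52-fold rise (2.18 ± 0.27, adjusted p = 0.0158). The carbonic anhydrase gene Car2 was at 10.43 and 10.87 in the hub and at 9.07 and 7.81 in the control, a difference of 2.21 ± 0.36 (adjusted p = 0.0412). For Car2 the control arrays lay further apart than the hub arrays, and the call was lost in 11 of the 12 fits that left out 1 array.

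Several genes of the cytoskeleton also rose. Cald1 encodes caldesmon, which binds actin filaments and restrains myosin. It was at 7.22 and 7.26 in the hub and at 5.06 and 5.16 in the control, a 4.38-fold rise (2.13 ± 0.19, adjusted p = 0.00722), and the control values were below the array medians, where RMA values compress differences. Of its 4 other probe sets, none was called and 1 was lower in the hub (-0.17). Fascin, the actin-bundling protein encoded by Fscn1, had values of 10.12 and 9.83 against 8.07 and 8.06 in the control (1.91 ± 0.22, adjusted p = 0.0155). Of its other probe sets, 2 were called in the same direction, at 2.34 and 2.08, and 1 was at 0.01. Podoplanin (Pdpn), a membrane glycoprotein tied to the actin cortex, rose by 1.49 ± 0.23 (adjusted p = 0.0331). Pdlim7, an actin-associated PDZ and LIM protein, rose by 1.41 ± 0.19, and the actin regulator Marcksl1 by 1.11 ± 0.15 (adjusted p = 0.021 for both). Of the 38 measured genes in the list of actin, myosin and tubulin cytoskeleton, 3 were called higher (Cald1, Fscn1 and Pdpn), and the median was 0.20. At an unadjusted p under 0.05 there were 12 higher genes and 3 lower ones, where 6.9% and 4.07% of all genes passed in those directions, and without 1 array between 1 and 3 stayed called, with 1 (Cald1) left when hub replicate 1 was out.

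Among the other large rises, Smim3, a small membrane protein, was at 9.79 and 9.04 in the hub and at 7.83 and 7.06 in the control (1.97 ± 0.30, adjusted p = 0.033). In this gene replicate 1 was higher than replicate 2 in both groups by a like amount. Cntfr, the receptor subunit for ciliary neurotrophic factor, was at 8.02 and 7.10 in the hub and at 6.014 and 5.798 in the control (1.65 ± 0.27, adjusted p = 0.0437). Cpn1, the catalytic subunit of carboxypeptidase N, was at 8.04 and 7.67 in the hub and at 6.04 and 6.41 in the control (1.63 ± 0.21, adjusted p = 0.0158). The retinol-binding protein gene Rbp2 was at 7.79 and 7.64 in the hub and at 6.23 and 5.97 in the control (1.61 ± 0.16, adjusted p = 0.0081). Slfn9, of the schlafen family, was at 8.670 and 8.205 in the hub and at 7.204 and 6.519 in the control (1.58 ± 0.21, adjusted p = 0.0198). In each of these genes the hub and control arrays did not overlap, which held for all 56 called genes. The genes were chosen by their p on these same arrays, which by itself favours arrays that do not overlap. Over all genes both hub arrays lay above both control arrays in 21.2% and below them in 18.0%.

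The remaining rises, of 0.74 to 1.45, covered several functions. Lysosomal and membrane traffic genes included Ctsc (cathepsin C, 1.42 ± 0.17), Pld1 (phospholipase D1, 1.45 ± 0.23), Golm1, a Golgi membrane protein (1.22 ± 0.19), and the endocytic adaptor Ston2 (1.22 ± 0.15). Ddit4, an inhibitor of mTORC1 that responds to stress, rose by 1.29 ± 0.22, and Akr1b8, an aldo-keto reductase, by 1.24 ± 0.19. Surface proteins of immune and epithelial signalling were Il4ra, the interleukin 4 receptor chain (1.03 ± 0.14), Sema4d, a semaphorin (0.92 ± 0.12), and the tetraspanin Tspan3 (0.90 ± 0.14). Genes for nucleotide supply and nuclear structure were also called, namely Rrm2 (1.18 ± 0.14), the deoxycytidylate deaminase Dctd (1.00 ± 0.17) and the lamin B receptor Lbr (1.04 ± 0.15). The others were B4galnt1, 2610001J05Rik, Snrnp25, Ppp1r8, Slc9a3r1, Hikeshi, Syce2, Zfp101, Gfm1 and Rpf2.

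The falls were fewer than the rises. Cyp3a13, a cytochrome P450, was at 4.92 and 5.31 in the hub and at 7.56 and 7.30 in the control, a 4.97-fold lower level (-2.31 ± 0.35, adjusted p = 0.033). Bbox1, the enzyme of the last step of carnitine synthesis, was at 5.59 and 6.13 in the hub and at 7.82 and 7.28 in the control (-1.69 ± 0.28, adjusted p = 0.0448), while its other probe set was at 0.06. Gabbr1, a subunit of the GABA-B receptor, was at 6.11 and 5.99 in the hub and at 7.33 and 7.31 in the control (-1.27 ± 0.14, adjusted p = 0.0127). The matrix protein gene Tnn, a tenascin, was at 5.01 and 5.49 in the hub and at 6.54 and 6.48 in the control (-1.26 ± 0.18, adjusted p = 0.0279). For Cyp3a13 both hub values were below the array medians.

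Tob1, an antiproliferative protein of the BTG/TOB family, was at 5.96 and 5.91 in the hub and at 6.98 and 7.37 in the control (-1.24 ± 0.20, adjusted p = 0.0372). Stx19, a syntaxin, was at 5.63 and 5.59 in the hub and at 7.01 and 6.59 in the control (-1.19 ± 0.17, adjusted p = 0.0259). The amino acid transporter gene Slc43a1 was at 6.12 and 5.67 in the hub and at 7.19 and 6.90 in the control (-1.15 ± 0.18, adjusted p = 0.0354). In these 3 genes both hub arrays lay below both control arrays, as in all 18 genes called lower, which the choice by p favours. The orphan nuclear receptor gene Nr4a2 was at 7.29 and 7.67 in the hub and at 8.78 and 8.46 in the control (-1.14 ± 0.14, adjusted p = 0.0158). The smaller falls were in Nr4a1, Cd59a, a membrane inhibitor of complement (-0.77 ± 0.12), Tsc22d2, Lrrtm2, Kazald1, Slc35a1, Tspan5, 4930523C07Rik, 4930562F07Rik and Ppp6r3, of which Ppp6r3 fell only on the probe set used, its 4 others lying between 0.00 and 0.06.

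**Figure D2:**
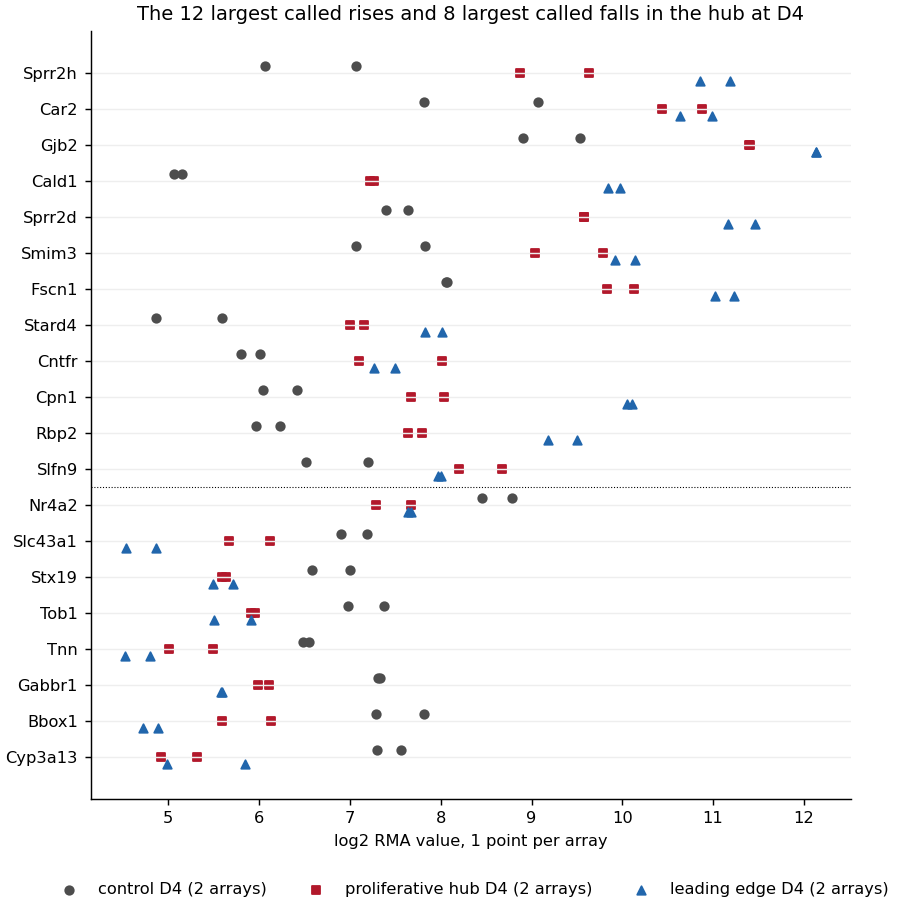
Log2 RMA value on each D4 array (horizontal axis, 1 point per array) of the 12 genes with the largest called rises, above the dotted line, and the 8 with the largest called falls, below it. Red squares are the proliferative hub, grey circles the control and blue triangles the LE. In every row the red points are clear of the grey ones, which the choice of the genes by p favours. In Cald1, Cpn1 and Rbp2 the blue points lie well beyond the red.

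The plot of the 20 largest changes by array also places the LE, which shares the wound but not the ring. When hub and LE were compared directly at D4, 367 genes were higher in the hub (2.15%) and 446 were lower (2.61%). The sum of 813 was 322 without hub replicate 2 and 364 without LE replicate 1. Among the 38 genes called higher in the hub than in the control, 17 were lower in the hub than in the LE by this test, 1 was higher (Zfp101, by 0.56 ± 0.14, adjusted p = 0.0493) and 20 were not called. Both comparisons use the same hub arrays. Cald1 was at 9.84 and 9.98 in the LE, a hub minus LE difference of -2.67 (adjusted p = 0.000194), and Marcksl1 was at 11.35 and 10.95 there, a difference of -2.25. Others did not separate the regions, such as Car2, with a hub minus LE difference of -0.16 (adjusted p = 0.928), Cntfr (0.18, adjusted p = 0.873) and Slfn9 (0.45, adjusted p = 0.339). Of the 18 genes called lower in the hub than in the control, 5 were higher in the hub than in the LE (Nr4a1, Cd59a, Slc43a1, 4930562F07Rik and 4930523C07Rik).

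In the widest differences between hub and LE the hub lay nearer to the control. These genes were picked for a wide gap to the LE, which by itself favours that position. Over all genes called, the median hub minus control difference was -0.20 for those higher in the hub than in the LE and 0.22 for those lower. Arg1, the arginase that turns arginine into ornithine, was at 5.51 and 5.47 in the hub, 5.74 and 5.08 in the control, and 10.29 and 9.48 in the LE. Its hub minus LE difference was -4.39 and its hub minus control difference 0.08 (adjusted p = 0.994). The collagenase gene Mmp13 was at 8.08 and 5.08 on the hub arrays, a gap between replicates wider than its difference from the control of 0.76. Inhba, the activin A subunit, was similarly split, at 8.21 and 6.38 in the hub, with 5.68 and 5.72 in the control and 11.29 and 10.49 in the LE. In the other direction, Krt36, a keratin of scale and hair-type differentiation in tail skin, was at 9.18 and 11.32 in the hub, 11.65 and 11.54 in the control, and 5.79 and 5.47 in the LE. Maob, monoamine oxidase B, was at 7.82 and 7.66 in the hub, with 7.43 and 7.30 in the control and 4.67 and 5.10 in the LE.

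A second rule, after the study's methods, asks for a change of more than 2-fold in each replicate. The methods do not say which control array each hub array is set against, and here it was the one of the same number, which gave 76 genes, while the control of the other number gave 49. The rule was met by 61 genes in the upward direction (0.357%) and by 15 in the downward direction (0.0877%), of which 26 and 6 were also called. Among those that passed by fold and not by the adjusted p were Mmp9, with log2 differences of 4.14 in one replicate and 1.07 in the other (adjusted p = 0.309), Procr (1.27 and 3.25) and Il24, a cytokine of the interleukin 20 family (2.49 and 2.39, adjusted p = 0.086). The rule does not weigh the spread within a group, and for the alarmin genes that spread was wide and ran the same way in all 3 regions. S100a8 was at 11.67 and 9.51 in the hub, at 9.84 and 7.59 in the control and at 11.74 and 10.92 in the LE, with replicate 1 the higher each time. S100a9 and the protease inhibitor gene Slpi had the same order. Between arrays of the same number, hub minus control was 1.83 and 1.92 for S100a8, 2.14 and 2.04 for S100a9, and 2.05 and 2.65 for Slpi. The main limma fit has no term for the replicate number, so a shift shared by the regions counts in it as spread. In that fit the mean differences of these 3 genes, 1.87, 2.09 and 2.35, had adjusted p of 0.406, 0.412 and 0.282.

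Genes were then grouped in 29 lists by function. The lists of G2/M and of DNA replication had the highest medians. Of 56 measured genes for G2/M and mitosis, 56 were higher in the hub in mean, 38 at an unadjusted p under 0.05 and none lower, against 6.9% and 4.07% of all genes, with a median of 0.87. No single member was called. Sgo1, the protector of centromeric cohesion, was at 5.02 and 4.94 in the hub and at 4.28 and 4.41 in the control (0.64 ± 0.11, adjusted p = 0.053), all below the array medians. Cdca5, or sororin, was at 8.92 and 8.48 in the hub and at 7.17 and 7.76 in the control (1.24 ± 0.25, adjusted p = 0.086). The mitotic kinase gene Melk was at 7.69 and 7.55 in the hub and at 6.11 and 6.61 in the control (1.26 ± 0.25), and the activator of the anaphase-promoting complex Cdc20 was at 10.33 and 10.43 in the hub and at 8.94 and 9.58 in the control (1.12 ± 0.24).

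The control arrays differed widely in these genes. The mean over the 56 genes was 8.10 on both hub arrays, while it was 6.88 on the control array of replicate 1 and 7.69 on that of replicate 2, and 54 of the 56 genes were higher on the latter, by 0.80 at the median. Without control replicate 1 the median over the list was 0.41 and 9 genes were higher at an unadjusted p under 0.05. Without control replicate 2 the median was 1.36, with 46 genes higher and 6 called. Without hub replicate 1 or 2, 20 and 22 genes passed that level. Both hub arrays lay above both control arrays in 48 of the 56 genes, against 21.2% of all genes.

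For DNA replication and G1/S, the control arrays stood together, at a mean of 7.78 and 7.67 over 55 measured genes, against 8.38 and 8.12 in the hub. All 55 were higher in the hub in mean, 36 at an unadjusted p under 0.05 and none lower, against 6.9% and 4.07% of all genes. The median was 0.48, and 1 gene was called, where 0.222% of all genes were called higher. Rrm2, the regulated subunit of ribonucleotide reductase, which makes deoxynucleotides, was at 10.76 and 10.43 in the hub and at 9.44 and 9.38 in the control (1.18 ± 0.14, adjusted p = 0.0158), and its other probe set was also called, at 1.36. Clspn, or claspin, the adaptor of the replication checkpoint, was at 8.44 and 8.43 in the hub and at 7.83 and 7.58 in the control (0.73 ± 0.13, adjusted p = 0.058). The replication fork genes Gins2 and Mcm10 differed by 0.54 ± 0.10 and 1.01 ± 0.21 (adjusted p = 0.075 and 0.086). Without the hub array of replicate 1 the number of genes at an unadjusted p under 0.05 was 16, and Rrm2 was not called, nor was it without control replicate 2.

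The promoters of a few of these genes are shown because the letters that mark cell cycle genes can be read in them. Genes of G2/M are known to carry a cell cycle homology region (CHR, TTTGAA) near their start, often with CCAAT boxes, and genes of DNA replication to carry E2F sites. RefSeq promoters of GRCm38.p6, from 250 bases before the start to 50 after it, were searched on both strands. Searched letters stand in capitals, the CHR in Cdca5, the CHR and CCAAT boxes (ATTGG on the other strand) in Cdc20, and an E2F site with CCAAT boxes in Clspn.
Cdca5, chr19:6084847-6085146, plus strand: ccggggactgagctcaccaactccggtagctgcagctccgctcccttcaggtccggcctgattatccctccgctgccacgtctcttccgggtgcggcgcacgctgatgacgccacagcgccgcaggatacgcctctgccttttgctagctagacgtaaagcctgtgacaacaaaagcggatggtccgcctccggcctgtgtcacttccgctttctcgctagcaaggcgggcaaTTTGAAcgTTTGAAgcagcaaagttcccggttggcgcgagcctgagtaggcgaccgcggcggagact
Cdc20, chr4:118437294-118437593, minus strand: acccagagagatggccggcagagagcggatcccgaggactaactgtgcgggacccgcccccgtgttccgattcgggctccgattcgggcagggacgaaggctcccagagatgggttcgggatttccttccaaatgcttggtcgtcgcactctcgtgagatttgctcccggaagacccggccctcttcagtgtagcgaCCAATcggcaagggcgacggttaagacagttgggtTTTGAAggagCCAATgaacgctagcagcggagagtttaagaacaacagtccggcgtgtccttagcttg
Clspn, chr4:126556730-126557029, plus strand: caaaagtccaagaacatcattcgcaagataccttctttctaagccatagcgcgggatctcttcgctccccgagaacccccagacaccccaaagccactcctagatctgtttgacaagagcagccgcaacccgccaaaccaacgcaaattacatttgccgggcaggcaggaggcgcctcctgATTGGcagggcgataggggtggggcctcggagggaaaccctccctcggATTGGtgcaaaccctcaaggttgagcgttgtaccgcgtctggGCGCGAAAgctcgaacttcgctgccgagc
In Cdca5 the CHR occurs at -17 and again at -9 from the start, and in Cdc20 it lies at -18 between CCAAT boxes at -53 and -8. In Clspn an E2F site lies 22 bases into the transcript. Of the 46 genes of the G2/M list that had a promoter in the table, 73.9% held a CHR, against 15.6% of the tested genes with a promoter and 20.2% of all promoters in the table, and 80.4% held a CCAAT box, against 42.3% of tested genes. Of 46 genes of the DNA replication list, 41.3% held an E2F site (TTTCCCGC, TTTGGCGC, TTTCGCGC or TTTGCCGC), against 3.79% of tested genes and 2.6% of all, and 19.6% held a CHR. The 34 genes called higher that had a promoter held a CHR in 11.8%, a CCAAT box in 47.1% and an E2F site in 8.82% (3 genes). A match gives letters in the window and not a bound site.

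Hub and LE arrays were close in both cell cycle lists at D4. The paper saw no uptake of BrdU, its marker of proliferation, in LE cells on that day. It describes the LE punch as enriching for LE cells, and a further sort aimed to keep proliferative cells out. The LE arrays used here lacked that sort, so their values need not be those of non-dividing LE cells alone. How many dividing cells they held was not tested. The mean over the G2/M genes was 7.97 and 8.01 in the LE, next to 8.10 in the hub. Of the 56 genes, 34 were higher in the hub and 22 lower. At an unadjusted p under 0.05, 2 were higher, where 1276 of all 17097 genes were, and none was called by limma. In the DNA replication list, 37 of 55 genes were higher in the hub than in the LE. Of these 1, Gins2, was called (0.44 ± 0.10, adjusted p = 0.0428), against 2.15% of all genes. Of the genes that restrain the cycle, the E2F repressor E2f7 was at 5.79 and 5.32 in the hub, 4.59 and 4.65 in the control, and 7.38 and 7.66 in the LE, with differences of -1.96 for hub minus LE (adjusted p = 0.00164) and 0.94 for hub minus control (adjusted p = 0.153). Tob1 fell, as given above. In the list of 22 inhibitors and repressors the median was 0.05, and at an unadjusted p under 0.05 there were 3 higher genes and 3 lower ones. In the list of 15 G1 cyclins and growth regulators the median was 0.07, with 3 genes higher and 1 lower at that level and none called. Of all genes 6.9% were higher and 4.07% lower at that level. Myc, a member that drives growth and proliferation, was at 11.18 and 11.25 in the hub and at 11.69 and 11.63 in the control (-0.44 ± 0.10, adjusted p = 0.101), and 0.71 higher in the hub than in the LE (adjusted p = 0.00311).

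**Figure D3:**
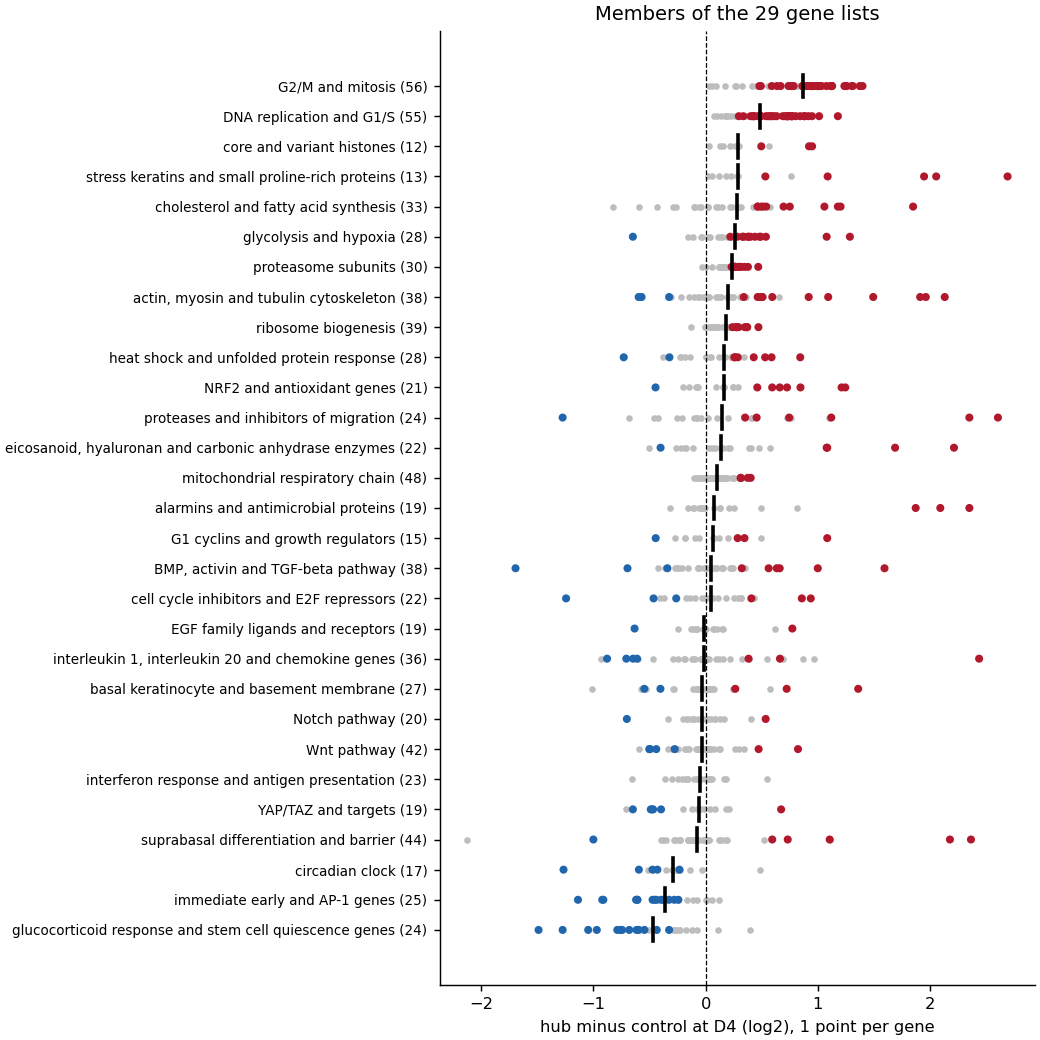
Hub minus control at D4 (log2, horizontal axis) for every measured gene of 29 lists, with the number of genes in parentheses; black ticks are list medians and the dashed line the median of all genes, 0.01. Coloured points have an unadjusted p under 0.05 (red higher, blue lower in the hub); the G2/M list (median 0.87) and the DNA replication list (0.48) hold no blue point, and the immediate early list (-0.36) no red one.

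Genes of the immediate early response leaned lower in the hub. This group is switched on within minutes by growth factors or stress and includes the AP-1 factors. Nr4a2 and Nr4a1 were called, Nr4a1 at 10.18 and 10.35 in the hub and at 11.21 and 11.14 in the control (-0.91 ± 0.13, adjusted p = 0.0267). Of the 25 measured genes, 15 were lower at an unadjusted p under 0.05 and none higher, against 4.07% of all genes, and the median was -0.36. The others with the lowest p were Ier2 (-0.62 ± 0.12, adjusted p = 0.074), the AP-1 subunit Fosl1 (-0.61 ± 0.12, adjusted p = 0.081) and the small Maf factor Maff (-0.92 ± 0.19, adjusted p = 0.086). Jun was at 11.40 and 11.53 in the hub and at 11.88 and 11.95 in the control. The mean over the list was 9.70 and 9.69 in the hub, 10.13 and 10.01 in the control and 9.57 on both LE arrays. Without control replicate 1 or hub replicate 1, 10 and 12 members were lower at an unadjusted p under 0.05 and neither Nr4a gene was called. Of the 4 other probe sets of Nr4a2, all were lower in the hub, between -0.17 and -1.94, and none was called.

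Both Nr4a promoters hold repeats of the cyclic AMP response element core (TGACG, or CGTCA on the other strand), a motif chosen after the values were seen and shown here in capitals.
Nr4a2, chr2:57123954-57124253, minus strand: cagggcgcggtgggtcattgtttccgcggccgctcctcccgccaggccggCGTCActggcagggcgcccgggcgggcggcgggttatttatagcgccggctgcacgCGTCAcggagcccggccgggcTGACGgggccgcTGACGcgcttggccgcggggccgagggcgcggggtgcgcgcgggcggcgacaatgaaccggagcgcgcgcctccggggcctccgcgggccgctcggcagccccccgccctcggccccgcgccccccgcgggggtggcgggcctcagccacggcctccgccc
Nr4a1, chr15:101266596-101266895, plus strand: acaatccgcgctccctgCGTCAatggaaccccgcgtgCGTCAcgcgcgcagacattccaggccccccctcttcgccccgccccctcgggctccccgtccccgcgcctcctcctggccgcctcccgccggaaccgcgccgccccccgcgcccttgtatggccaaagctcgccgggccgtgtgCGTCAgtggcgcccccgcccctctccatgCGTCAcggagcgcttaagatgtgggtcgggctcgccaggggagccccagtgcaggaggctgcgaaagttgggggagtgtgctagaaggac
Each window holds 4 copies. Of 21 immediate early genes with a promoter in the table, 66.7% held the core, against 29.9% of tested genes and 23.0% of all promoters. It was held by 37.5% of the 16 genes called lower with a promoter and by 26.5% of the 34 called higher. In the DNA replication list, whose genes were higher in the hub in mean, the share was 41.3%.

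A list of glucocorticoid response and stem cell quiescence genes had the lowest median, -0.47, with 13 of 24 genes lower at an unadjusted p under 0.05 (4.07% of all genes), none higher and none called. Some of its members were named by the study from these same samples, so its direction is not independent evidence. Zbtb16, the zinc finger protein PLZF, was at 8.78 and 9.07 in the hub, 10.36 and 9.58 in the control, and 6.631 and 6.605 in the LE. Its hub minus control difference was -1.05 ± 0.21 (adjusted p = 0.086) and its hub minus LE difference 2.31. Trim2, a ubiquitin ligase, and Klf9, a Krüppel-like factor induced by glucocorticoids, were at -1.49 ± 0.30 and -0.76 ± 0.17 against the control (adjusted p = 0.086 and 0.118). Of the 24 genes, 9 were called higher in the hub than in the LE, against 2.15% of all genes. In the circadian list, 16 of 17 genes were lower in the hub in mean and 5 at an unadjusted p under 0.05, among them Per1 (-0.59 ± 0.15, adjusted p = 0.158), and the median was -0.29.

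Lists of biosynthesis and metabolism leaned upward by small amounts. Their counts at an unadjusted p under 0.05 stand against 6.9% of all genes higher and 4.07% lower. For cholesterol and fatty acid synthesis 2 of 33 measured genes were called. Stard4, which carries cholesterol between membranes, was at 7.002 and 7.150 in the hub and at 4.86 and 5.59 in the control (1.85 ± 0.24, adjusted p = 0.0158), and Insig1, which holds the SREBP factors in the endoplasmic reticulum and is itself their target, was at 8.63 and 8.30 in the hub and at 7.56 and 7.25 in the control (1.06 ± 0.14, adjusted p = 0.0158). Sqle, squalene epoxidase, was at 1.20 ± 0.28 (adjusted p = 0.131). At an unadjusted p under 0.05, 11 genes were higher and none lower, with a median of 0.28. Without the hub array of replicate 1 the number was 3 and no gene was called, and without control replicate 2 it was 6. In mean 24 of the 33 genes were higher in the hub. Among those lower were Scd1 at -0.59 and Elovl6 at -0.83, neither called, and other probe sets of Elovl6 were at -0.25 and 0.21. The median hub minus LE difference of the list was -0.42.

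Of 28 genes of glycolysis and hypoxia, none was called, and 13 were higher and 1 lower at the unadjusted level, led by the lactate transporter gene Slc16a3 at 9.13 and 8.57 in the hub and 7.27 and 7.85 in the control (1.29 ± 0.23, adjusted p = 0.058). In the direct test 9 of its genes were called lower in the hub than in the LE and 1 higher, against 2.61% and 2.15% of all genes. Of 30 proteasome subunits 13 were higher at an unadjusted p under 0.05 and none lower, with a median of 0.23, and without hub replicate 1, hub replicate 2 or control replicate 2 the number was 2, 8 and 5. Of 39 ribosome biogenesis genes 8 were higher and none lower, with a median of 0.18, and 1 was higher without hub replicate 1, 3 without control replicate 2 and 5 without either LE array of D7. The NRF2 list of antioxidant genes had Akr1b8 called, a call lost when any D4 hub or control array was left out, and 7 of 21 genes higher and 1 lower. No gene of the interferon and antigen presentation list, of 23, was called or passed an unadjusted p of 0.05.

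Of 13 stress keratins and small proline-rich proteins, 13 were higher in the hub in mean and 9 had both hub arrays above both control arrays, against 21.2% of all genes. At an unadjusted p under 0.05, 5 were higher and none lower, against 6.9% and 4.07% of all genes, and Sprr2h and Sprr2d were called. The median of 0.29 was 0.15 without control replicate 2, 0.47 without control replicate 1 and 0.48 without hub replicate 2. Krt6b was at 11.89 and 11.87 in the hub and at 11.18 and 8.69 in the control, a difference of 1.95 ± 0.58 (adjusted p = 0.215) with control arrays far apart. Among 44 genes of suprabasal differentiation and barrier the median was -0.07, with a range from -2.12 to 2.37, and 17 were higher in the hub in mean. Both hub arrays lay above both control arrays in 9 genes and below them in 16, against 21.2% and 18.0% of all genes. At an unadjusted p under 0.05, 5 were higher and 1 lower. Gjb2 was called, and desmocollin 2 (Dsc2) was at 9.21 and 8.64 in the hub against 7.27 and 5.85 in the control (2.37 ± 0.41, adjusted p = 0.053). Its second probe set was called, at 3.49 (adjusted p = 0.019 over all probe sets). The hyaluronan synthase gene Has3 was at 8.54 and 8.26 in the hub and at 7.22 and 6.21 in the control (1.69 ± 0.29, adjusted p = 0.053). Among 27 basal and basement membrane genes the median was -0.03, with the collagen IV gene Col4a1 at 1.36 ± 0.29 (adjusted p = 0.096).

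Signalling lists had medians between -0.06 and 0.05 and no called gene for the Wnt, Notch, YAP/TAZ and the BMP, activin and TGF-beta pathways. At an unadjusted p under 0.05, where 6.9% of all genes were higher and 4.07% lower, the Wnt list had 2 higher and 5 lower of 42 genes, the Notch list 1 and 1 of 20, and the BMP, activin and TGF-beta list 6 and 3 of 38. Of the 19 genes of YAP/TAZ and their targets, 5 were higher in mean, and at that level 1 was higher and 5 lower, or 2 lower without control replicate 2, where the list median was -0.25. At D7, 7 of the 19 were lower at that level, where 749 of all 17097 genes were. Bmp2 was at 6.95 and 8.29 in the hub and at 9.03 and 9.60 in the control (-1.69 ± 0.38, adjusted p = 0.118), and the latent TGF-beta binding protein Ltbp1 was at 1.00 ± 0.18 (adjusted p = 0.066). Among 19 EGF family ligands and receptors the counts at an unadjusted p under 0.05 were 1 higher and 1 lower. The ligand epiregulin (Ereg) was at 5.15 and 4.94 in the hub, 4.49 and 4.05 in the control, and 8.103 and 7.999 in the LE. Its hub and control values were below the array medians.

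**Figure D4:**
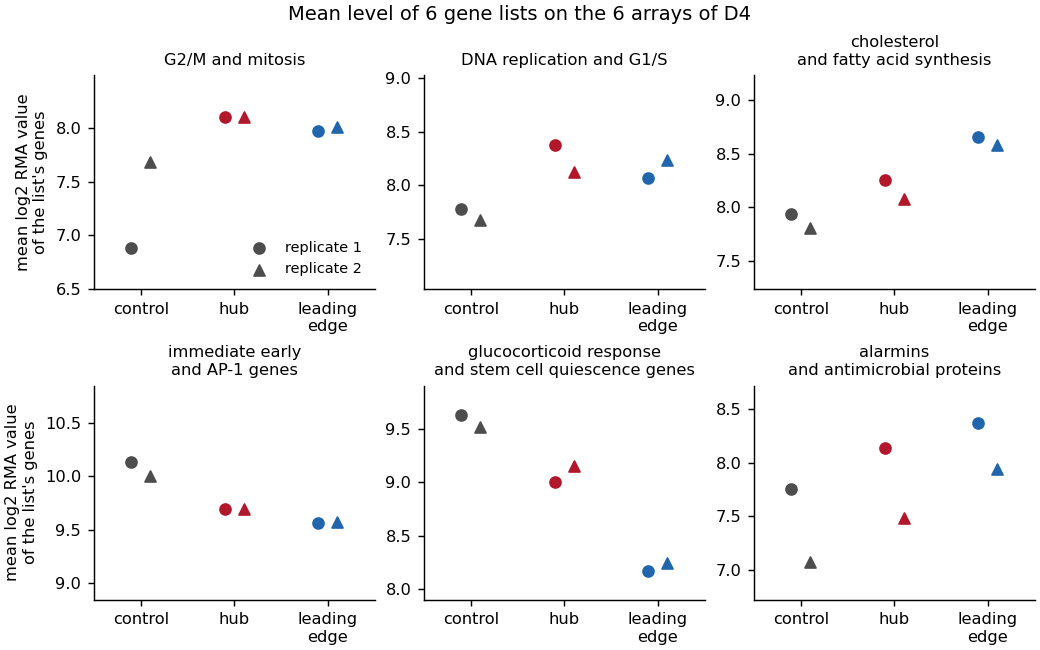
Mean log2 RMA value over the genes of 6 lists on each D4 array (vertical axis, every panel spans 2 log2 units), for control, hub and LE; circles are replicate 1 and triangles replicate 2. The control arrays of the G2/M panel lie apart, at 6.88 and 7.69, the hub lies between control and LE for the glucocorticoid and quiescence list, and replicate 1 is the higher in all 3 regions for the alarmins.

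At D7 the hub was sampled again from other arrays, and 101 genes were called higher (0.591%) and 29 lower (0.17%) against the D7 control, together 130 and, without 1 of the D7 arrays, 7 to 62. Of the 38 genes called higher at D4, 38 had the same sign at D7, 35 with an unadjusted p under 0.05, and 20 were called. Of the 18 called lower, 17 had the same sign, 13 with an unadjusted p under 0.05, and 5 were called. The exception was Slc35a1, at 0.04. The median change of the 38 genes was 1.23 at D4 and 0.78 at D7, and that of the 18 genes -1.05 and -0.58. The genes were chosen by their p at D4, which by itself favours larger differences there and a small SE. The fit gives a gene the same SE on both days, so the p at D7 is not independent of that choice. Of all 17097 genes, 1415 were higher and 749 lower at D7 at an unadjusted p under 0.05.

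Among the largest rises of D4, values at D7 lay on both sides of those at D4. Sprr2d differed by 3.91 ± 0.16 at D7 and Car2 by 3.81 ± 0.36, against 2.06 and 2.21 at D4, and Gjb2 by 3.03 ± 0.27. Slfn9 was at 0.35 ± 0.21 at D7, Cntfr at 0.63 ± 0.27, Snrnp25 at 0.18 ± 0.16 and Lbr at 0.26 ± 0.15, none of them called there. Tested as a difference between days, no gene was called by limma (lowest adjusted p = 0.195, for Sprr2d), with 354 genes higher and 425 lower at D4 at an unadjusted p under 0.05. The G2/M list had a median of 0.87 at D4 and 0.07 at D7, where 2 of 56 genes were higher at an unadjusted p under 0.05. At that level 16 of the 56 differed between the days, all with the larger value at D4. The D4 median depends on the control arrays, whose means over the list were 6.88 on replicate 1 and 7.69 on replicate 2. Array medians also differed between the days, and whether this alters the size of differences was not tested. The DNA replication list had medians of 0.48 and 0.25, with 36 and 15 of 55 genes higher. The immediate early genes were at -0.36 and -0.26, and 11 of 25 were lower at D7. Over all 17097 genes, 1415 were higher and 749 lower at D7 at an unadjusted p under 0.05.

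**Figure D5:**
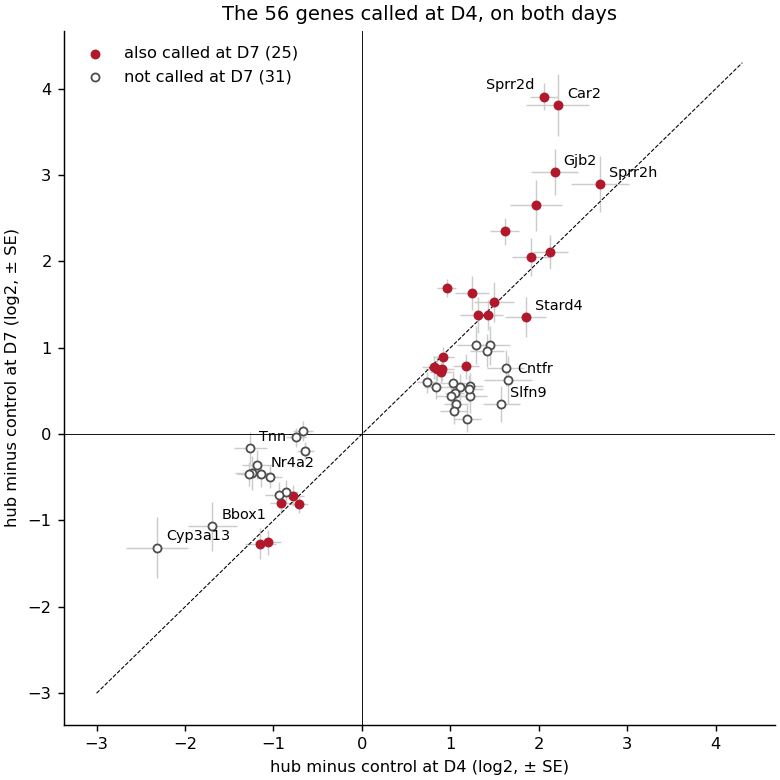
Hub minus control at D7 (vertical axis) against hub minus control at D4 (horizontal axis), log2 with SE as grey bars, for the 56 genes called at D4; filled points were also called at D7 (25 genes) and the dashed line marks equal change. Sprr2d, Car2 and Gjb2 lie above the line, and Slfn9, Cntfr and most of the smaller rises lie below it.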

How the data were processed

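Basal cells of mouse tail epidermis were profiled on Affymetrix perfect-match arrays for the mouse genome, 2 for each of LE, proliferative hub and control at D4 and D7. The authors deposited log2 expression values after RMA (background correction, quantile normalization and probe set summary; version and software settings not given in the sources used here). The array medians were 5.401 to 5.469 at D4 and 4.25 to 4.29 at D7, so levels were compared only within a day. The 45141 rows held 104 controls, 28898 probe sets annotated to 1 gene, 551 to several and 15588 to none. The number of arrays limits the precision, and p-values measure the spread between these pools.

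Differences were fitted with limma 3.58.1 in R 4.3.3 (1 mean per group, 12 arrays, 6 residual degrees of freedom, empirical Bayes, Benjamini-Hochberg over 17097 genes), which was tested on simulated data. The file has no detection calls and genes were not filtered on level. Gene lists are described by counts and medians without a test. The members and lists were chosen with earlier results of these data known. Every called gene could be named, with array values for the 12 largest rises and 8 largest falls, and up to 5 genes of lowest p per list, beside markers, genes the study names and the 8 largest differences each way between hub and LE. A few further genes (Mmp9, Procr, Jun, Scd1, Elovl6, and Snrnp25 and Lbr at D7) were picked after their values were seen. Promoters came from a RefSeq table of GRCm38.p6, and tables and figures were made with Python 3.11.15, pandas 2.3.3 and matplotlib 3.10.9. Alternatives covered scaling, probe set choice, dim genes, the prior, array weights, a replicate block, D4 arrays alone and each array left out. A second microarray experiment that the study describes, on α5-integrin, was not used here.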

Additional observations from a re-analysis of the deposited data

Results flagged for a closer look

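Hub and LE share their control arrays, so the regions were tested against each other directly. A total of 813 genes differed between hub and LE at D4, 367 higher and 446 lower in the hub. In the genes that had risen in the hub against the control, the hub minus LE difference (log2) was -1.77 for Sprr2h, -2.67 for Cald1, -1.74 for Sprr2d, -1.14 for Fscn1, -2.22 for Cpn1, -1.62 for Rbp2, -1.65 for Pdpn, -1.32 for Pld1 and -1.47 for Pdlim7. It was -0.86 for B4galnt1, -1.21 for Akr1b8, -2.25 for Marcksl1, -0.99 for Insig1, -0.94 for Il4ra, -0.88 for Slc9a3r1, -1.03 for Sema4d and -0.56 for Tspan3, and 0.56 for Zfp101. Of the genes that had fallen, it was 1.09 for 4930562F07Rik, 1.02 for Cd59a, 1.28 for Nr4a1, 1.24 for 4930523C07Rik and 1.20 for Slc43a1.

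The widest differences on the side of the LE were -4.39 for Arg1, -4.06 for Mmp13, -3.63 for Tmem45b, -3.60 for Inhba, -3.55 for Basp1, -3.37 for Uox, -3.33 for Neu2 and -3.29 for Gjb6. On the side of the hub they were 4.62 for Krt36, 2.98 for Efemp1, 2.86 for Maob, 2.64 for Trim2, 2.61 for Gpnmb, 2.56 for Ackr4, 2.42 for Gpha2 and 2.40 for Cpxm2.

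Probe sets without a single annotated gene were left out of the comparison. When each of the 45037 probe sets was tested by itself with limma, 26 of the 16139 such probe sets were called in hub against control at D4, 12 higher and 14 lower, among 97 called in all. The largest rise among them was 3.08 ± 0.20, with 7.74 and 7.22 in the hub and 4.56 and 4.25 in the control.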

How the results depend on the processing

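All 56 called genes had the same direction in every fit tried, and 52 of them were still called when arrays were centred, 49 after a second quantile normalization, 43 with the probe sets of a gene averaged and 50 with the replicate block. Of their other probe sets, 7 were of opposite sign, at 0.0023, 0.0565, 0.0545 and 0.0296 for Ppp6r3, -0.1659 for Cald1, -0.2109 for Rpf2 and 0.0629 for Bbox1. With the probe sets averaged Per3 and Ddx58 turned to 0.0449 and 0.0202, and with 1 array left out Cxcl9 ranged from -1.4208 to 0.107, turning without control D4 replicate 1. None of these 3 genes was called.

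Against 56 calls for hub against control at D4, there were 118 with the replicate block, 148 with a trended and robust prior, 1 in the 6 arrays of D4 alone, 0 in the 4 hub and control arrays (limma, 1641 at an unadjusted p under 0.05) and 6 to 49 with 1 array left out. For hub against control at D7 there were 130, with 205 under the trended and robust prior and 7 to 166 with 1 array left out. For hub against LE at D4 there were 813, with 263 in the D4 arrays alone and 322 to 907 with 1 array left out. For the difference between days there were 0, with 1 under the trended and robust prior and 0 to 1 with 1 array left out. The labels do not say whether the replicate numbers pair the arrays, and with 2 numbers the correlations of replicate differences across genes (0.24 for hub and control, 0.21 for hub and LE, 0.17 for control and LE) do not settle it. With the replicate block Car2, Golm1, Ddit4, Syce2, Dctd and Slc35a1 were not called.

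The fold rule gave 76 genes, and 35 for the lower hub against the higher control array, 177 by group means, 49 with crossed numbers and 207 to 379 from 1 replicate. List medians that moved beyond the spread of the 4 hub against control differences were 0.2418 for glycolysis and hypoxia and -0.3364 for the circadian clock after a second quantile normalization, and 0.1823 for glycolysis and hypoxia with probe sets averaged. With 1 array left out they ranged from 0.2248 to 0.2975 for that list, -0.4187 to -0.2807 for immediate early genes, -0.3333 to -0.2449 for the clock, 0.0829 to 0.2904 for NRF2, -0.06 to -0.0026 for interferon, -0.1073 to 0.0088 for Notch and -0.2481 to -0.0587 for YAP/TAZ genes. The cause of these shifts was not tested.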
